A study of Mus musculus with 29 samples.

Results

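Kupffer cells, the macrophages that reside in the liver, were compared with Ly6C high macrophages sorted from livers of the same genotype. The comparison took in every autosomal gene with at least 1 RPM (reads per 1000000 assigned reads) in at least 3 of the 7 libraries concerned, which left 12040 of the 23930 genes in the deposited table, and it used 4 Kupffer and 3 Ly6C high libraries of the 29 in the series. The series profiled splenic and hepatic macrophages sorted from wild-type and mutant mice with an amplicon panel for mouse transcripts, and this pair of groups sets the resident macrophages of the liver against Ly6C high cells of the same organ. Both groups came from untreated wild-type C57BL/6 mice of both sexes, whose age is not given in the sources used here. Kupffer cells were gated as positive for F4/80 and Tim4, intermediate for CD11b and low for PDCA-1. Ly6C high macrophages were gated as CD11b positive with high Ly6C, and cells with Ly6G, SiglecF or NK1.1 were left out. The published sorting methods differ from these gates and name F4/80 positive liver cells low for CD11b as Kupffer cells. Tim4, Ly6G, SiglecF and NK1.1 are not among the liver stains named there. Whether each library was 1 mouse or a pool is not stated, so p-values measure only the spread between these libraries, which may be technical.

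Kupffer cells lie in the sinusoids of the liver, where they take up bacteria, dying red blood cells, lipoproteins and complement-coated particles from the blood. Their identity is known to be held by signals from the endothelial cells, stellate cells and hepatocytes around them, among them Notch ligands, BMP and sterols, and by transcription factors that include the liver X receptor LXR alpha. Ly6C high cells of the liver are blood-borne classical monocytes and cells newly derived from them, which depend on the chemokine receptor CCR2 to leave the bone marrow and which answer tissue injury with cytokines and chemokines. In bulk libraries of sorted cells, fewer cells of a type and less RNA per cell cannot be told apart.

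The 4 Kupffer libraries held 11451876 to 12207718 reads and the 3 Ly6C high libraries 11179177 to 12956956, so that 3 reads, taken here as the limit below which a gene was not told from 0, were 0.232 to 0.268 RPM. This limit covers counting error only. The panel amplifies 1 short stretch of each transcript, so RPM were compared for a gene between libraries and not between genes. A larger share of the reads went to a few genes in Ly6C high macrophages. The 100 most abundant genes took 31.3% to 32.9% of the reads there and 21.5% to 24.7% in Kupffer cells, and 10060 to 11632 genes reached 1 RPM against 11994 to 12852. For this reason RPM were divided by relative log expression (RLE) factors, which were 1.19 to 1.25 in Kupffer cells and 0.733 to 0.801 in Ly6C high macrophages. All log2 differences below are Kupffer minus Ly6C high on the log2(RPM / RLE factor + 1) scale, which understates the difference of low genes, and the RPM given for single libraries are as deposited.

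A gene was called when it differed by over 1.5-fold with a Benjamini-Hochberg adjusted p below 0.05 in limma. Kupffer cells had 3546 genes higher, 29.5% of those tested, and 3023 genes lower, 25.1% of those tested. Of these, 3320 and 2796 had no overlap between the 4 and the 3 libraries, against 58.5% of all tested genes without overlap. The call and the overlap rest on the same values, so lack of overlap in called genes is not separate support, here or below. The higher genes reached further. Differences of over 8-fold were found for 660 higher and 213 lower genes, and over 32-fold for 109 and 35. The median difference of all tested genes was 0.06 and the median standard error (SE) 0.26. On RPM as deposited the same fit called 5972 genes higher and 1275 lower, with a median of 0.68, so that a log2 difference of about 0.62 hangs on the scaling. Among the genes named below, 8 turned from negative to positive on RPM as deposited, namely C5ar1, Cd74, H2-Aa, H2-Ab1, H2-Eb1, Id3, Irf8 and Nr1h2. Another 9, not called after scaling, were called higher there, at 0.67 (Ly96) to 1.36 (Lpl), the others being Abcg1, Anxa5, Bst2, Csf1r, Ctsb, Ctsd and Irf7. Lists whose median turned are named as such. A gene may stand in several of the lists below. Counts of list members called higher or lower are to be read against 29.5% and 25.1% of all tested genes.

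**Figure D1:**
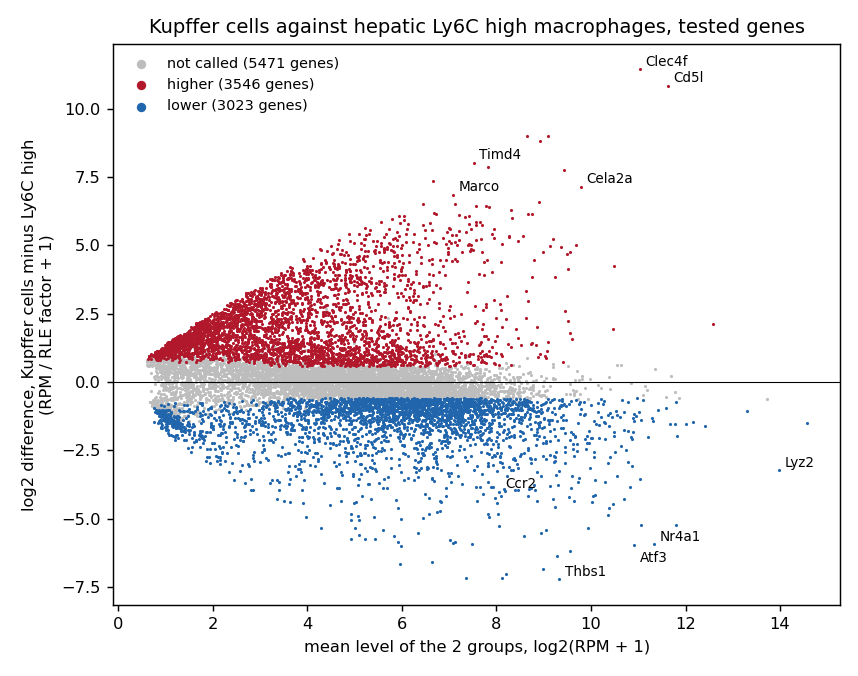
Each point is 1 of the 12040 tested genes, with the mean level of the 2 groups in log2(RPM + 1) on the horizontal axis and the log2 difference, Kupffer cells minus Ly6C high, on the vertical axis. Red points are the 3546 genes higher in Kupffer cells, blue points the 3023 lower and grey points the rest, and Clec4f and Cd5l stand at the top at 11.43 and 10.83.

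The libraries of a group were not equally alike. Kupffer replicate 3 stood apart from the other Kupffer libraries. It was the lowest of the 4 for 22 of 22 Kupffer cell identity genes and the highest for 18 of 18 markers of liver sinusoidal endothelial cells and 12 of 13 hepatocyte markers, against 23.7% and 39.6% of all tested genes in which it was the lowest and the highest. Among genes called higher it was the highest for 51.3% and the lowest for 20.4%. Being highest there therefore does not set a single higher gene apart. Kupffer replicates 1 and 4 held transcripts of the exocrine pancreas, at 14716 and 14327 RPM summed over 24 markers, against 181 and 285 RPM in replicates 2 and 3. Results that rest on these libraries are given below with and without them. Without Kupffer replicate 3 the fit called 3468 genes higher and 2933 lower, and without Kupffer replicates 1 and 4 3134 and 2599.

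The genes of the proteins used for sorting were read first, as a check of the labels. Timd4, which encodes Tim4, had 415, 448, 166 and 431 RPM in the Kupffer libraries against 0, 0.083 and 0.089 RPM in the Ly6C high libraries. Adgre1, which encodes F4/80, had 587, 429, 201 and 467 RPM against 116, 160 and 91.1 RPM, a log2 difference of 1.03 ± 0.32 (SE; adjusted p = 0.016, limma). Itgam, which encodes the CD11b chain of complement receptor 3, had 93.4, 131, 124 and 119 RPM against 1829, 1282 and 1334 RPM. These 3 genes followed the gates, although Adgre1 overlapped between the groups after scaling. It was not called without Ly6C high replicate 3, at 0.85, or without Kupffer replicates 1 and 4, at 0.62. Bst2, which encodes PDCA-1, was not called, at 387 to 533 RPM in Kupffer cells and 220 to 290 RPM in Ly6C high macrophages. Among the genes of the excluded proteins, Ly6g stood at 0 to 0.998 RPM and 0 to 0.626 RPM, and Siglecf at 0.524 to 17.6 RPM and 1.08 to 4.47 RPM. Klrb1c, which encodes NK1.1, stood at 14.8 to 42.4 RPM in Kupffer cells and 0.984 to 3.92 RPM in Ly6C high macrophages, for which it was an exclusion marker.

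Kupffer cell identity genes were all higher. Of 22 listed members, all 22 passed the filter and 22 were higher, with a median log2 difference of 6.04 against 0.06 for all tested genes, or 6.28 with the members at 0 reads in Ly6C high set to their lower bound. Members under 1 RPM in every Ly6C high library, among them Clec4f, Folr2, C6 and Timd4, could pass the filter only through the Kupffer libraries. Timd4 and Adgre1 encode proteins of the Kupffer gate. The count is therefore a description and not a test. Their levels summed to 22114, 23265, 8083 and 23054 RPM in the 4 Kupffer libraries and to 257, 267 and 217 RPM in Ly6C high macrophages. Without Kupffer replicate 3 all 22 were still called, and without replicates 1 and 4 20 were.

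The largest difference of all tested genes was that of Clec4f, which encodes a galactose-binding C-type lectin made by Kupffer cells (GRCm38, chr6:83644542-83656187, minus strand). Clec4f had 4823, 4819, 1674 and 5470 RPM in the Kupffer libraries against 0.154, 0.167 and 0 RPM in the Ly6C high libraries, a log2 difference of 11.43 ± 0.35 (adjusted p = 2.7e-09, limma). None of the other 22 libraries of the series, from spleen and liver, exceeded 63.3 RPM of Clec4f. Cd5l, a secreted scavenger protein also known as AIM and an LXR target, followed with 7317, 8187, 2098 and 7779 RPM against 1.62, 1 and 0.895 RPM, a log2 difference of 10.83 ± 0.41 (adjusted p = 7.7e-09, limma; GRCm38, chr3:87357881-87371073, plus strand). Every Kupffer library held at least 1674 RPM of either gene and no Ly6C high library more than 1.62 RPM, with Kupffer replicate 3 the lowest of its group. Cd5l was not low throughout the other libraries, since liver Ly6C low macrophages of mutant mice had 5478 to 9639 RPM, while the other 19 libraries had 3.87 to 431 RPM.

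Promoters are shown as examples for Clec4f and Cd5l, with the largest differences on the Kupffer side, and for Atf3 and Nr4a1, immediate early genes that stood 11 and 12 in the order of lower genes. The window was the 250 bases before the RefSeq start (GRCm38.p6). GENCODE places the start of Clec4f 71 bases and that of an Atf3 transcript 7 bases further upstream, and those bases are not printed. The stretches of Clec4f (chr6:83656188-83656366, minus strand), Cd5l (chr3:87357631-87357880, plus strand), Atf3 (chr1:191183341-191183583, minus strand) and Nr4a1 (chr15:101266596-101266845, plus strand) read as follows, 5′ to 3′. Capitals mark matches on either strand to GAGGAAG (the core of PU.1 sites), AGGTCA (a nuclear receptor half-site), TTGCNNAA (C/EBP), TGGGAA (the core bound by RBPJ) or CANNTG (an E-box).
Clec4f: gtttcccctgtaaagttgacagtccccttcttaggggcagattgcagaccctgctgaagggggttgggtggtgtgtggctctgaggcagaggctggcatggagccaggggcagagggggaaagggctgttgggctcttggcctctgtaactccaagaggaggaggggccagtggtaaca
Cd5l: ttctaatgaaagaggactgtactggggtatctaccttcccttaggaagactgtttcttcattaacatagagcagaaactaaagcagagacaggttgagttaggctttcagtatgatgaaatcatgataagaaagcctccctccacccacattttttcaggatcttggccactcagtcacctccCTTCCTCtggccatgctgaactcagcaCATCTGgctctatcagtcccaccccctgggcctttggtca
Atf3: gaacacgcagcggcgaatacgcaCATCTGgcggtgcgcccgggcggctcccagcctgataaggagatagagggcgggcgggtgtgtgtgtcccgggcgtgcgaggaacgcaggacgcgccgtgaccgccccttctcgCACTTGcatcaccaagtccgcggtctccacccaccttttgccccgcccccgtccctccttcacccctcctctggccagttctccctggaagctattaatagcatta
Nr4a1: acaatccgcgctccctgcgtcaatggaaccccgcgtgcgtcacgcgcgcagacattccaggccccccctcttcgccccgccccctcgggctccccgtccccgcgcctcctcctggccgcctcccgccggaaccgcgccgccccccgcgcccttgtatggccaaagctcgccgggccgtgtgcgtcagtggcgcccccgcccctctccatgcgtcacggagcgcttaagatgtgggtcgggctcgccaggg
The Clec4f window held 1 match each to AGGTCA and TGGGAA, both in the 71 bases that GENCODE counts as exon, and that of Cd5l 1 match each to GAGGAAG and CANNTG. Atf3 held 2 matches to CANNTG and Nr4a1 none to any of these motifs. Of the 27025 promoters in the table, 13.8% held AGGTCA, 21.5% TGGGAA, 10.4% GAGGAAG, 9.55% TTGCNNAA and 66.0% CANNTG in the same 250 bases. A promoter was matched by symbol for 78.4% of the tested genes, for 76.9% of the higher and 78.4% of the lower genes, less than the 80% set for a check over a set, so motif shares were not compared between the sets. A match is a run of letters and does not show that a factor binds there.

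The other leading genes on the Kupffer side were members of the same list or neighbours of it in function. Folr2, a folate receptor of resident macrophages, had 1173, 1475, 536 and 1195 RPM against 0.309, 0.501 and 0.716 RPM (log2 difference 8.98 ± 0.31). C6, a component of the membrane attack complex of complement, reached the same difference with 1002, 824, 325 and 1050 RPM against 0.154, 0.083 and 0.179 RPM (8.98 ± 0.35). Fcna, which encodes ficolin A, a lectin that recognises carbohydrates on microbes, had 1177, 1323, 379 and 1007 RPM against 0.695, 0.167 and 0.537 RPM (8.82 ± 0.38). Slc40a1, the iron exporter ferroportin, had 1677, 1470, 483 and 1886 RPM against 1.54, 5.01 and 2.59 RPM (7.75 ± 0.44). Dmpk, a kinase, had 612, 550, 160 and 480 RPM against 0.154, 0.167 and 0.626 RPM (7.88 ± 0.41). All 5 stood at a few RPM or less in Ly6C high macrophages. Separation between the groups was a condition for standing among the 12. Timd4, whose protein was part of the gate, was represented by 2 reads in the 3 Ly6C high libraries together, a ratio of 4132 with a 95% counting interval of 1144 to 34121. Cd207, which encodes the lectin langerin, had 230, 197, 166 and 208 RPM in Kupffer cells and no read in Ly6C high macrophages, and was at least 498-fold higher when set against 3 reads per library. Marco, a scavenger receptor for bacteria, completed the identity genes among the 12 largest differences with 295, 369, 124 and 291 RPM against 0.232, 0.751 and 0.895 RPM (6.85 ± 0.35). The remaining 2 of the 12, Cela2a and Pnlip, are pancreatic and are described below.

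Members of the identity list with smaller differences were less exclusive. Cd163, the receptor for haptoglobin-bound haemoglobin, had 432, 658, 198 and 544 RPM against 2.47, 2.5 and 1.97 RPM (6.41 ± 0.34). Il18bp, the secreted inhibitor of interleukin-18, had 673, 624, 185 and 659 RPM against 17.7, 14.6 and 9.04 RPM (4.4 ± 0.41). Cdh5, which encodes VE-cadherin and is at the same time a defining gene of endothelial cells, had 870, 1071, 733 and 759 RPM against 5.02, 10.7 and 5.63 RPM (6.14 ± 0.23). Hpgd, which inactivates prostaglandins, was among the smallest differences at 1.7 ± 0.26, with 514, 540, 317 and 366 RPM against 102, 55.8 and 91.1 RPM. All 4 were separate between the groups in every library, as were 21 of the 22 identity genes, Adgre1 being the exception. Of all tested genes, 58.5% were separate.

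**Figure D2:**
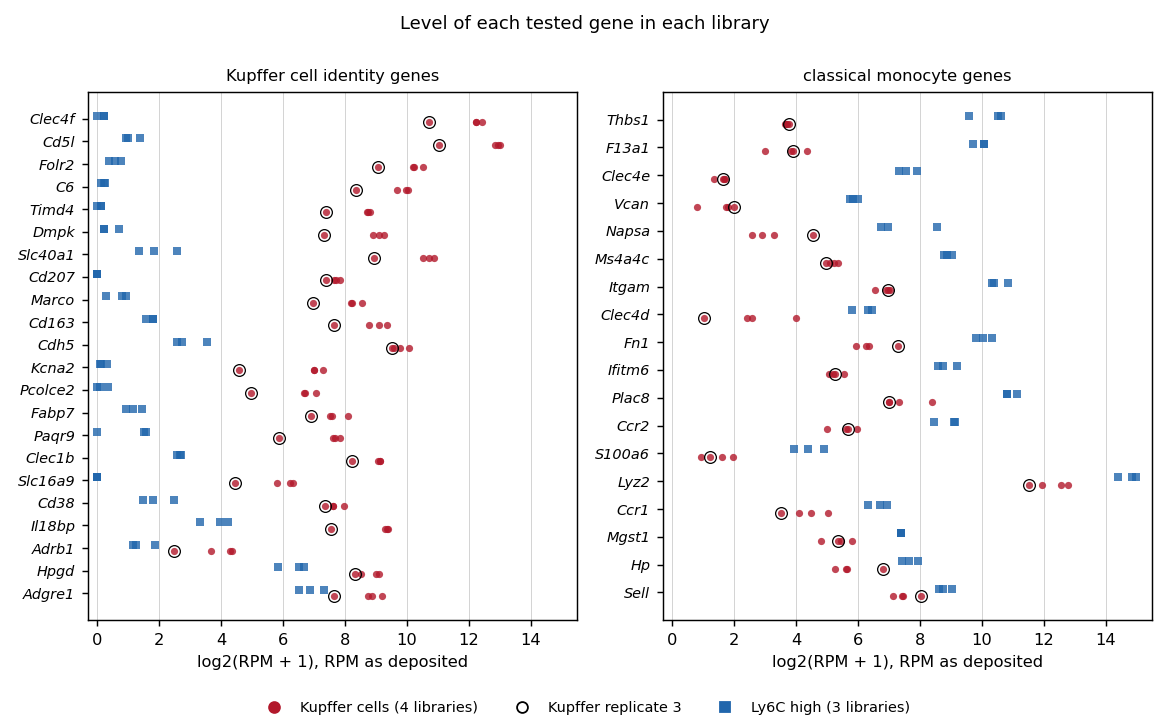
Each row is a gene and each mark a library, with log2(RPM + 1) of the deposited values on the horizontal axis. Red circles are the 4 Kupffer libraries, with replicate 3 ringed, and blue squares the 3 Ly6C high libraries. The 22 Kupffer identity genes lie to the right in Kupffer cells with replicate 3 lowest in every row, and the 18 tested classical monocyte genes lie to the right in Ly6C high macrophages.

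The genes that define classical monocytes were lower in Kupffer cells without exception among those tested. Of 22 listed members, 18 were in the table and tested, and all 18 were lower, with a median log2 difference of −4.26 and no overlap between libraries for any of them. Among all tested genes 25.1% were lower and 58.5% had no overlap. Itgam is 1 of the 18, and its protein CD11b was part of both gates. Ccr2, the receptor for the chemokine CCL2, had 61.2, 47.8, 49.7 and 31.1 RPM in Kupffer cells against 558, 548 and 352 RPM in Ly6C high macrophages (−4.01 ± 0.23; adjusted p = 8.7e-08, limma). Lyz2, lysozyme of myeloid cells, had 5980, 3916, 2913 and 7073 RPM against 29380, 21216 and 31977 RPM (−3.22 ± 0.36). The 18 genes summed to 3912 to 7808 RPM in Kupffer cells against 31414 to 41521 RPM, and Lyz2 alone made up most of either sum. All 18 were also lower without Kupffer replicate 3 and without replicates 1 and 4.

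The 12 largest differences in this direction mixed monocyte, granulocyte and activation genes. Thbs1, which encodes the matricellular protein thrombospondin-1 (GRCm38, chr2:118111876-118127133, plus strand), had 11.7, 11.4, 12.6 and 12 RPM in Kupffer cells against 760, 1578 and 1476 RPM in Ly6C high macrophages, the largest at −7.21 ± 0.23 (adjusted p = 3.3e-09, limma). F13a1, the A chain of coagulation factor XIII, had 6.96, 19.6, 13.9 and 13.3 RPM against 838, 1080 and 1066 RPM (−6.84 ± 0.27). Clec4e, which encodes the pattern recognition receptor Mincle, had 1.56, 2.25, 2.1 and 2.18 RPM against 158, 238 and 188 RPM (−6.58 ± 0.21). Serpinb10, a serine protease inhibitor, had 3.85, 7.07, 4.37 and 4.53 RPM against 684, 387 and 580 RPM (−7.15 ± 0.25). All 4 were lower in every Kupffer library than in any Ly6C high library, which was a condition for standing among the 12. Gm9733, for which no role is given here, had 1.05 to 4.33 RPM against 254 to 360 RPM (−7.17 ± 0.3), and AA467197 0.087 to 3.69 RPM against 99.8 to 136 RPM (−6 ± 0.39). Ngp, a granule protein of neutrophils, had 10.2, 0, 1.57 and 10.9 RPM against 76.3, 959 and 709 RPM (−7.01 ± 0.91), and Cd177, a surface protein of neutrophils, had 0.983, 0, 0.873 and 1.01 RPM against 76.6, 128 and 162 RPM (−6.65 ± 0.32). Ly6C high replicate 1 was the lowest of its group for both, by several times for Ngp, which ranged from −8.19 without Ly6C high replicate 1 to −6.35 without Kupffer replicate 2.

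Patrolling monocytes, the other blood monocyte subset, are marked by 9 genes of the list, of which 7 were lower, 1 was higher and 1 was not called, with a median of −1.44. Ace, angiotensin-converting enzyme, had 7.29, 6.41, 8.38 and 4.03 RPM in Kupffer cells against 266, 249 and 295 RPM (−5.84 ± 0.22). Spn, which encodes the sialophorin CD43, had 2.01 to 6.63 RPM against 20.2 to 30.9 RPM (−3.02 ± 0.33). Cx3cr1, the fractalkine receptor, had 49.8, 36, 41.7 and 32 RPM against 75.1, 68.9 and 60 RPM (−1.44 ± 0.19). Fcgr4, an activating Fc receptor, went the other way with 282, 285, 173 and 329 RPM against 88.3, 77.2 and 74.6 RPM (1.01 ± 0.22; adjusted p = 0.0021, limma). The list therefore did not move as 1 block. On RPM as deposited 5 of its genes were lower and 2 higher.

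Markers of other cells that a liver preparation could hold were read as whole lists. All 18 tested markers of liver sinusoidal endothelial cells were higher in Kupffer cells, with a median of 5.03, and summed to 6240, 9122, 15016 and 6292 RPM in the 4 Kupffer libraries, 0.624% to 1.5% of the reads, against 132, 214 and 204 RPM in Ly6C high macrophages. Stab2, a hyaluronan receptor of these cells, had 289, 494, 520 and 200 RPM against 2.01, 3.5 and 5.1 RPM, and Clec4g, a lectin, had 877, 1232, 2662 and 1150 RPM against 22.3, 36.9 and 33.7 RPM. Flt4, a receptor for vascular endothelial growth factors, had 241, 421, 500 and 181 RPM against 1.16, 2.75 and 2.86 RPM. No defining marker was at 0 in Kupffer cells. All 18 kept their call without Kupffer replicate 3. Their part in the results was not tested.

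All 13 tested hepatocyte markers were higher as well, with a median of 3.86, and summed to 2041, 1915, 6052 and 1843 RPM against 38.4, 68.7 and 61.5 RPM. Alb, albumin, had 1093, 974, 3408 and 996 RPM against 25.9, 23.9 and 27.7 RPM, and Ahsg, the plasma protein fetuin-A, 297, 254, 884 and 209 RPM against 2.31, 4.67 and 2.95 RPM. The 12 stellate cell and fibroblast markers were all higher, with sums of 407 to 815 RPM against 32 to 59.8 RPM, and Lrat, the enzyme that stores vitamin A as esters in stellate cells, had 19.7, 37.9, 39.3 and 15.9 RPM against no read, at least 69.7-fold higher. Lrat could pass the filter only through the Kupffer libraries. Endothelial, hepatocyte and stellate lists had their highest sum in Kupffer replicate 3, the library with the lowest sum of Kupffer identity genes. Their part in the results was not tested.

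Lymphocyte markers followed the same direction at lower sums. All 9 T cell markers were higher, with 220 to 363 RPM in sum against 14.6 to 34.5 RPM, as were 6 of 7 B cell and plasma cell markers with 481 to 1005 RPM against 58.3 to 105 RPM and 7 of 9 NK cell markers with 152 to 300 RPM against 25 to 36.4 RPM. Pax5, the transcription factor that fixes the B cell fate, had 199, 174, 451 and 272 RPM against 0.54, 1.58 and 0.984 RPM (6.52 ± 0.32). Cd3e, a chain of the T cell receptor complex, had 28.8, 42.3, 49.9 and 27.1 RPM against 2 reads in all, a ratio of 414 with a counting interval of 115 to 3423. Cd3e, like the T cell markers Cd3d and Lat, could pass the filter only through the Kupffer libraries. NK1.1-positive cells had been gated out of the Ly6C high group, and no such exclusion is stated for the Kupffer gate. Of 9 dendritic cell markers, 4 were higher and 3 lower, and their median turned from −0.18 to 0.5 on RPM as deposited. Xcr1, a marker of cross-presenting dendritic cells, had 42.4, 16.5, 74 and 51.8 RPM against 2.78, 1.5 and 1.97 RPM (3.22 ± 0.42), while Cd209a, a lectin of dendritic cells and monocytes, had 0.335 to 1.48 RPM against 48.6 to 74.7 RPM (−5.58 ± 0.29). Platelet and megakaryocyte markers summed to 88.1 to 113 RPM against 1.62 to 6.76 RPM, and erythroid markers to 54.3 to 224 RPM against 0.463 to 3.92 RPM. Large peritoneal macrophage markers, read because the liver surface carries such cells, were higher for 5 and lower for 1 of 7. Gata6, their lineage factor, had 7.29, 4.66, 16.7 and 7.3 RPM against 0.617, 0.25 and 0.358 RPM (2.32 ± 0.37). The part of these cells in the results was not tested.

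Exocrine pancreas genes were listed after the values of Cela2a and Pnlip had been seen among the largest differences. Cela2a, a digestive elastase, had 3290, 31.2, 76.8 and 3632 RPM in the Kupffer libraries against 0, 1.25 and 3.22 RPM in the Ly6C high libraries, a log2 difference of 7.15 ± 1.46 (adjusted p = 0.0014, limma). Pnlip, pancreatic lipase, had 1897, 17.3, 39.2 and 1881 RPM against 0, 0.501 and 2.59 RPM (6.57 ± 1.45; adjusted p = 0.0023, limma). With single libraries left out in turn, Cela2a ranged from 6.08 to 8.36 and Pnlip from 5.53 to 7.76, and without Kupffer replicates 1 and 4 they stood at 4.04 and 3.46. Kupffer replicates 1 and 4 lay far above replicates 2 and 3, which in turn lay above the Ly6C high libraries. The 24 listed genes summed to 14716, 181, 285 and 14327 RPM, up to 1.47% of the reads, against 1, 6.17 and 19.3 RPM. Of these, 19 passed the filter, which genes with almost no reads in Ly6C high macrophages could pass only through the Kupffer libraries, so no count of calls is given. The other 5 stood at 0 to 52.5 RPM in Kupffer cells and 0 to 0.358 RPM in Ly6C high macrophages, with exact permutation p of 0.0571 to 0.5714 (two-sided). These genes are not known as macrophage genes, and their part in the results was not tested.

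**Figure D3:**
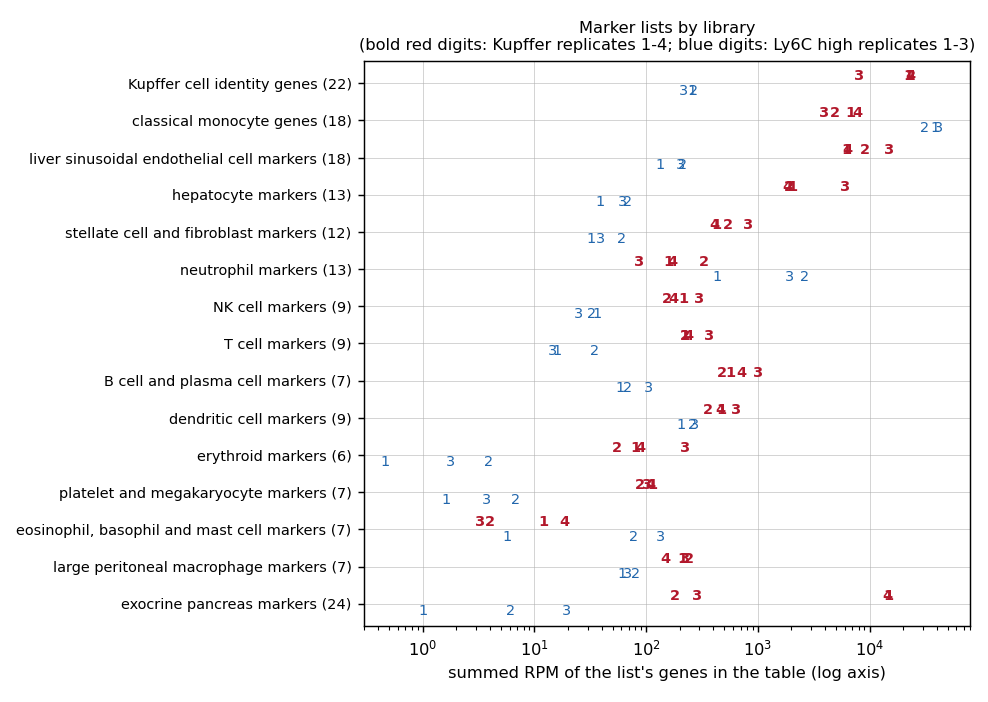
Summed RPM over the genes of each marker list (number of genes in the table in brackets) on a log axis, with bold red digits for Kupffer replicates 1 to 4 and blue digits for Ly6C high replicates 1 to 3. Kupffer replicate 3 is lowest for the identity genes and highest for endothelial and hepatocyte markers, and replicates 1 and 4 lie at 14716 and 14327 RPM for pancreatic genes, above the other libraries.

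On the Ly6C high side, 9 of 11 tested neutrophil markers were lower in Kupffer cells and 1 was higher, with a median of −3.56. Their sums were 157, 326, 85.7 and 171 RPM in Kupffer cells against 431, 2600 and 1936 RPM in Ly6C high macrophages, from which Ly6G-positive cells had been gated out. Mmp8, a collagenase of neutrophil granules, had 4.18, 1.5, 2.71 and 1.51 RPM against 107, 107 and 113 RPM (−5.64 ± 0.27). S100a8, a subunit of calprotectin that monocytes also make, had 17.6, 54.5, 3.49 and 10.5 RPM against 24.5, 327 and 179 RPM (−3.56 ± 0.85; adjusted p = 0.0039, limma) and overlapped between the groups. Mmp8 was even across the 3 Ly6C high libraries and S100a8 was not, with replicate 1 the lowest and a range of −4.68 without that replicate to −2.87 without Ly6C high replicate 2. Eosinophil, basophil and mast cell markers summed to 3.23 to 18.5 RPM in Kupffer cells and to 5.71, 77.3 and 134 RPM in Ly6C high macrophages. Of the 3 tested, only Prg2, eosinophil major basic protein, was called, with 0 to 0.573 RPM against 2.24, 71.3 and 124 RPM (−5.05 ± 0.96). The part of granulocytes in the results was not tested.

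Transcription factors of the macrophage lineage differed in both directions. Of 26 tested, 5 were higher, 14 lower and 7 not called, with a median of −0.97. Maf, which restrains proliferation and supports the resident state, had 762, 867, 982 and 601 RPM in Kupffer cells against 132, 111 and 115 RPM (2.03 ± 0.18; adjusted p = 2.8e-06, limma). Nr1h3, which encodes LXR alpha, had 263, 322, 169 and 234 RPM against 42.5, 48.6 and 51.9 RPM (1.64 ± 0.21), and Rxra, its partner receptor, 897, 980, 663 and 978 RPM against 246, 155 and 203 RPM (1.45 ± 0.22). Nr1h2, which encodes LXR beta, was not called at 48.6 to 72.9 RPM against 46.6 to 55.7 RPM. Tfec had 156, 167, 139 and 215 RPM against 53.2, 58.7 and 47.6 RPM (0.96 ± 0.18), and Spic, known from macrophages that recycle iron, 37.5, 49.8, 33.3 and 50.2 RPM against 15.4, 16.4 and 15.9 RPM (0.69 ± 0.21). Spic was not called without Ly6C high replicate 1, at 0.65, or without Kupffer replicates 1 and 4, at 0.66. The 5 higher factors were separate between the groups in every library.

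The lower factors included general myeloid regulators. Bhlhe40 had 64 to 96.3 RPM in Kupffer cells against 650, 880 and 931 RPM (−3.95 ± 0.2), Klf4, which monocytes need to form, 30.6 to 40.1 RPM against 252, 468 and 298 RPM (−3.82 ± 0.21), and Cebpb, a factor of myeloid and acute phase genes, 145 to 392 RPM against 1356, 2421 and 1296 RPM (−3.14 ± 0.34). Spi1, which encodes PU.1, was also lower, with 579, 402, 465 and 611 RPM against 1265, 1183 and 1598 RPM (−2.08 ± 0.21). Id3, a gene that Kupffer cell development requires, was not called (−0.44 ± 0.17) at 691 to 828 RPM against 539 to 777 RPM. Irf8 was not called either at 345 to 549 RPM against 266, 695 and 244 RPM. Zeb2, another factor tied to Kupffer cell identity, was lower (−1.4 ± 0.18). On RPM as deposited 6 of the 26 were higher and 11 lower.

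**Figure D4:**
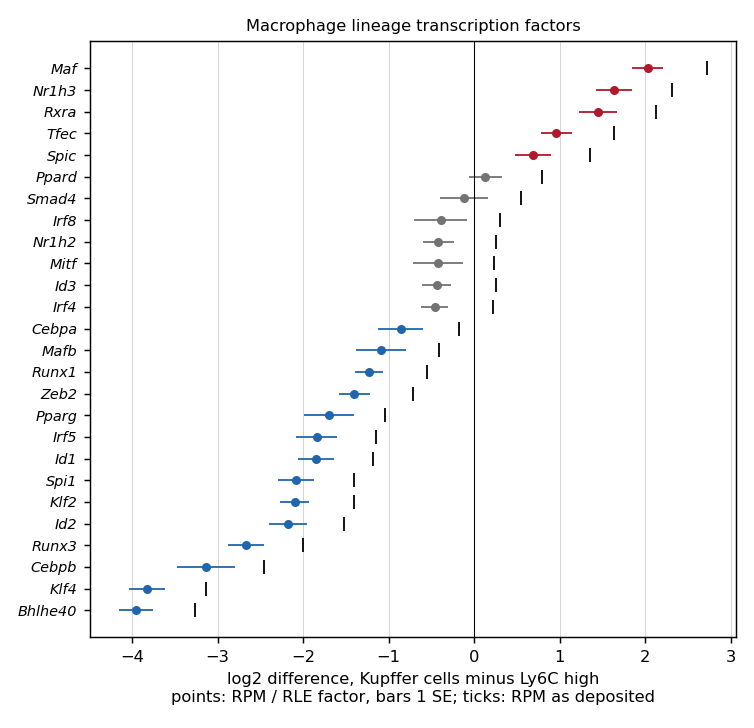
Log2 difference, Kupffer cells minus Ly6C high, of the 26 tested lineage transcription factors. Points with bars of 1 SE are RPM divided by RLE factors, red where higher, blue where lower and grey where not called, and black ticks are RPM as deposited, shifted to the right. Maf, Nr1h3, Rxra, Tfec and Spic are higher, and Bhlhe40 and Klf4 lie furthest to the left.

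Targets of LXR and genes of sterol synthesis moved apart. LXR switches on genes that export cholesterol, while the sterol regulator SREBP2 switches on its synthesis and uptake. Of 17 tested LXR targets, 9 were higher, 2 lower and 6 not called, with a median of 1.02. After Cd5l came Scd1, the desaturase that makes monounsaturated fatty acids, with 309, 318, 417 and 306 RPM in Kupffer cells against 2.7, 3.5 and 2.86 RPM (5.79 ± 0.17; adjusted p = 2.6e-09, limma). Apoc1, an apolipoprotein, had 1586, 1459, 990 and 1145 RPM against 18.4, 21.8 and 39.5 RPM (4.93 ± 0.27), and Mertk, a receptor for dying cells, 380, 345, 141 and 334 RPM against 3.94, 9.6 and 4.74 RPM (4.77 ± 0.35). Abca1, which loads cholesterol onto lipoproteins, had 460, 444, 179 and 444 RPM against 25.8, 41.6 and 39.4 RPM (2.65 ± 0.32). Its relative Abcg1 was not called (0.34 ± 0.25), with 416, 329, 226 and 494 RPM against 166, 163 and 190 RPM. Scd1 was highest in Kupffer replicate 3, as were 51.3% of all genes called higher, and Apoc1, Mertk and Abca1 were lowest there. That library was also highest for hepatocyte markers, whose part was not tested. Arl4c (−2.13 ± 0.19) and Smpdl3a (−1.55 ± 0.26) were the 2 listed targets that were lower.

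Of 15 tested genes for sterol synthesis and uptake, 11 were lower, 1 higher and 3 not called, with a median of −1.53. Insig1, the retention protein of the sterol sensor, had 33.8, 40.2, 62.3 and 56.9 RPM in Kupffer cells against 173, 197 and 220 RPM in Ly6C high macrophages (−2.71 ± 0.22). Sqle, squalene epoxidase, had 3.58 to 19.5 RPM against 35.8 to 61 RPM (−2.6 ± 0.42). Both were separate between the groups. Stard4, a sterol transporter, was the higher one at 0.62 ± 0.23, and it was not called without Kupffer replicate 2 or 3, at 0.62 and 0.44, or without Ly6C high replicate 2 or 3, at 0.54 and 0.53. On RPM as deposited 8 genes were lower and 3 higher.

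Of 21 tested genes for fatty acid uptake, storage and oxidation, 8 were higher, 7 lower and 6 not called, with a median of 0.13. Of all tested genes 29.5% were higher and 25.1% lower. On RPM as deposited 11 of the 21 were higher and 3 lower. Fabp7, a fatty acid binding protein on the identity list, had 183, 271, 119 and 190 RPM in Kupffer cells against 1.7, 1.25 and 0.895 RPM (5.83 ± 0.28). Mgll, monoglyceride lipase, had 20.9, 34.9, 46.2 and 17 RPM against 0.309, 0.751 and 0.626 RPM (3.78 ± 0.34), and Fabp4, which endothelial cells also make, 102, 151, 187 and 70.1 RPM against 17.1, 16.9 and 15.8 RPM (2.11 ± 0.28). Both were highest in Kupffer replicate 3, as were the endothelial markers and 51.3% of all genes called higher. Plin2, the coat protein of lipid droplets, was lower with 473, 350, 297 and 477 RPM against 895, 1372 and 1273 RPM (−2.25 ± 0.22), and Dgat2, which makes triglyceride, had 3.94 to 12.1 RPM against 18.1 to 21.3 RPM (−2.15 ± 0.32). Lpl, lipoprotein lipase, was not called (0.67 ± 0.36), with 1050, 1040, 329 and 1045 RPM against 297, 333 and 286 RPM.

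Receptors for dying cells and scavenger receptors were mostly higher. Of 20 tested, 15 were higher, 1 lower and 4 not called, with a median of 1.33. Beside Timd4, Marco, Cd163 and Mertk, Mrc1, the mannose receptor CD206, had 1352, 1600, 1340 and 1339 RPM in Kupffer cells against 26.5, 40.6 and 32.7 RPM (4.7 ± 0.17; adjusted p = 5.4e-09, limma). Stab1, a scavenger receptor shared with sinusoidal endothelium, had 666, 756, 1227 and 654 RPM against 24.9, 38 and 39.3 RPM (3.86 ± 0.24). Axl, a relative of Mertk, had 645, 527, 201 and 617 RPM against 96.4, 114 and 113 RPM (1.39 ± 0.35), and Gas6, the ligand of both, 135, 105, 331 and 147 RPM against 11.9, 2.42 and 11.7 RPM (3.67 ± 0.49). Stab1 and Gas6 were highest in Kupffer replicate 3, while Axl was lowest there. Gas6 stood at 2.96 without Ly6C high replicate 2, and Axl was not called without Kupffer replicates 1 and 4, at 0.92. Cd68, a pan-macrophage sialomucin, was the 1 lower gene at −0.77 ± 0.29, with 1341, 1282, 588 and 1274 RPM against 1155, 957 and 1317 RPM, and it was not called on RPM as deposited, with TMM factors, with edgeR (−0.7), without the filter on low values, at over 2-fold, or without Kupffer replicate 3 (−0.47), Ly6C high replicate 1 (−0.78) or Ly6C high replicate 3 (−0.66). Without Kupffer replicate 3, 15 of 19 tested genes were higher and none was lower.

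Complement genes were higher for 11 of 16 tested, lower for 3 and not called for 2, with a median of 2.99. C1qb, a chain of the recognition molecule C1q, had 3217, 2868, 1442 and 3600 RPM in Kupffer cells against 81.4, 73 and 104 RPM (4.25 ± 0.3; adjusted p = 4e-07, limma), and C1qc, another chain, 34, 39.4, 17.5 and 23 RPM against 0.077, 0.417 and 0.447 RPM (4.05 ± 0.32). C1qa, the remaining chain, was listed at 0.262 to 0.573 RPM against 0 RPM, under the filter, where the exact permutation test over 7 libraries gave p = 0.0571 (two-sided), the smallest it allows. Values so near 0 beside those of the other chains can be a failed amplicon, and no level is read from them. C4b, which links C1q to the rest of the cascade, had 154, 143, 51.7 and 89.7 RPM against 1.08, 2.34 and 1.61 RPM (4.74 ± 0.35). Cd55, which protects cells from complement, had 197, 235, 503 and 185 RPM against 5.4, 4.59 and 11.4 RPM (4.44 ± 0.36). It was highest in Kupffer replicate 3, as were 51.3% of all genes called higher and the endothelial markers, whose part was not tested. C3, the central component, went the other way with 641, 677, 1179 and 418 RPM against 1920, 1728 and 1760 RPM (−2.09 ± 0.28), as did the receptor chains Itgam (−4.33 ± 0.19) and Itgax (−1.73 ± 0.34). The CD11b protein that Itgam encodes was part of both gates. C3ar1, a receptor for the C3a peptide, was higher at 2.65 ± 0.21 and C5ar1 was not called.

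Iron and heme recycling, by which macrophages return the iron of red cells to the blood, was represented by 20 tested genes, of which 9 were higher, 4 lower and 7 not called, with a median of 0.35, and on RPM as deposited 12 were higher and 3 lower. Slc40a1 and Cd163 led. Blvrb, biliverdin reductase B, had 220, 232, 154 and 251 RPM in Kupffer cells against 39.8, 48.9 and 40.5 RPM (1.59 ± 0.19; adjusted p = 3.1e-05, limma), and Slc48a1, which carries heme out of the phagolysosome, 257, 240, 134 and 239 RPM against 43.4, 49.6 and 51.8 RPM (1.43 ± 0.23). Hmox1, heme oxygenase-1, was not called (0.06 ± 0.37), with 1120, 906, 509 and 1526 RPM against 409, 477 and 911 RPM. Mfsd7b, a heme exporter, was lower with 37.5, 52.2, 33.8 and 55.3 RPM against 131, 106 and 136 RPM (−2.15 ± 0.22). Hpx, Steap4 and Cp were also higher. Hpx encodes the plasma protein hemopexin, a product of hepatocytes, and had 89.6, 74.9, 200 and 97.4 RPM against 1.16, 1.33 and 0.805 RPM (5.19 ± 0.31), highest in Kupffer replicate 3. The part of hepatocytes in this difference was not tested. Fth1, ferritin heavy chain, which nearly every cell uses, was listed at 0 to 0.749 RPM in the 7 libraries, which can likewise be a failed amplicon, and was not tested in the fit.

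Lysosomal genes stood near the middle of all genes, with 11 higher, 6 lower and 19 not called of 36 and a median of 0.02. On RPM as deposited 19 were higher and 2 lower. Ctsf, cathepsin F, had 61.4, 63.9, 33.7 and 53.5 RPM in Kupffer cells against 1.16, 1.42 and 0.895 RPM (4.11 ± 0.27; adjusted p = 2.6e-07, limma), the largest difference of the list. Lgmn, an asparaginyl endopeptidase, had 1915, 2045, 517 and 799 RPM against 189, 256 and 272 RPM (1.57 ± 0.41). Npc2, a cholesterol carrier of the lysosome lumen, was lower with 1065, 1084, 808 and 1285 RPM against 2811, 2506 and 2602 RPM (−2.02 ± 0.21), as was Psap, the precursor of the saposins, with 2280, 2002, 1517 and 2625 RPM against 4815, 5850 and 4601 RPM (−1.98 ± 0.24). The cathepsins Ctsb (0.24 ± 0.29) and Ctsd (0.49 ± 0.35) were not called. Kupffer replicate 3 was the lowest of the 4 for 28 of the 36 genes.

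Fc receptors and C-type lectin receptors split by member. Of 21 tested, 6 were higher, 10 lower and 5 not called, with a median of −0.77. Among all tested genes 29.5% were higher and 25.1% lower. Fcgrt, the neonatal Fc receptor that recycles antibody and albumin, had 1165, 1262, 1224 and 1381 RPM in Kupffer cells against 136, 107 and 147 RPM (2.6 ± 0.18; adjusted p = 3.5e-07, limma). Clec1b, which encodes CLEC-2, had 562, 539, 297 and 557 RPM against 5.33, 4.92 and 5.55 RPM (5.61 ± 0.24). Cd209f had 40.9, 39.8, 26.3 and 39 RPM against 1 read in all, a ratio of 824 with a counting interval of 148 to 32558. Fcgr2b, the inhibitory Fc receptor that sinusoidal endothelium also carries, was lower with 9.83, 13.3, 13.9 and 7.63 RPM against 86.9, 49.6 and 84.9 RPM (−3.26 ± 0.27). Clec7a, the beta-glucan receptor Dectin-1, was lower too, with 1009, 799, 391 and 1021 RPM against 2782, 2539 and 2566 RPM (−2.49 ± 0.31). Lectins higher and lower in Kupffer cells thus stood side by side in 1 family.

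Of 10 tested MHC class II genes, 3 were higher, 2 lower and 5 not called, shares near those of all tested genes. Without scaling, on RPM as deposited, 5 were higher and 5 not called, and the median turned from −0.13 to 0.56. H2-Ab1 (−0.23 ± 0.2), H2-Eb1 (−0.02 ± 0.2) and Cd74, the invariant chain (−0.63 ± 0.3), were not called, and Cd74 had 14593, 10837, 12602 and 17364 RPM in Kupffer cells against 13001, 11947 and 14423 RPM. H2-Aa was lower at −0.59 ± 0.2 after scaling and stood at 0.09 on RPM as deposited, and it lost its call without Kupffer replicate 1, 2 or 3 (−0.6, −0.5 and −0.58) and without Ly6C high replicate 1 or 3 (−0.55 and −0.58). The genes of the peptide editor H2-O, H2-Ob with 102, 89.7, 229 and 130 RPM against 9.72, 11.8 and 8.41 RPM (2.92 ± 0.28) and H2-Oa (1.26 ± 0.25), were higher. H2-O is known chiefly from B cells. Both genes were highest in Kupffer replicate 3, as were 6 of 7 B cell markers and 51.3% of all genes called higher.

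Autosomal Toll-like receptors and their partners were lower for 12 of 18 tested, higher for 3 and not called for 3, with a median of −1.51. Toll-like receptors encoded on the X chromosome were outside the comparison, so the counts do not describe the whole family. Tlr3, which senses double-stranded RNA in endosomes, was higher with 43.8, 35.4, 72.2 and 49.3 RPM in Kupffer cells against 3.16, 6.67 and 1.88 RPM (2.87 ± 0.34; adjusted p = 2.3e-05, limma), and so was Tlr4, the receptor for lipopolysaccharide, with 157, 181, 111 and 217 RPM against 51.2, 51.5 and 46.5 RPM (1.01 ± 0.22). Cd14, the co-receptor of Tlr4, was lower with 247, 253, 184 and 167 RPM against 441, 621 and 613 RPM (−2.08 ± 0.2). The adaptors Myd88, with 91.6, 120, 90.9 and 130 RPM against 324, 223 and 340 RPM (−2.12 ± 0.22), and Ticam2, with 35.4 to 46.5 RPM against 100 to 107 RPM (−2.06 ± 0.17), were lower as well. Tlr4 and Cd14 thus differed in opposite directions, and Ly96, which completes the receptor, was not called (0.01 ± 0.22). Tlr5, the flagellin receptor, had 1.08 to 4.78 RPM against 6.35 to 10 RPM (−2.02 ± 0.36).

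Cytokines were lower for 12 of 18 tested, higher for 2 and not called for 4, with a median of −1.89. Il1b had 214, 212, 183 and 226 RPM in Kupffer cells against 1234, 1940 and 1385 RPM in Ly6C high macrophages (−3.52 ± 0.18; adjusted p = 4.6e-08, limma). Tnf, another central inflammatory cytokine, had 0.923 to 1.64 RPM against 12.9, 31 and 20.1 RPM (−3.74 ± 0.31). Osm, oncostatin M, had 3.28, 12.8, 5.5 and 4.19 RPM against 178, 319 and 285 RPM (−5.88 ± 0.35), and Lif, a related cytokine, 0 to 4.02 RPM against 28.7, 79.4 and 75.5 RPM (−5.32 ± 0.5). The groups did not overlap for any of the 4. Il18bp and Il12b were the 2 higher genes, and Il12b had 11.7, 3.74, 4.45 and 10.9 RPM against 0.154, 1 and 0.895 RPM (1.87 ± 0.42), or 1.22 without Kupffer replicates 1 and 4.

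Chemokines and their receptors followed, with 17 lower, 3 higher and 6 not called of 26 and a median of −1.74. Ccrl2, a receptor that presents the attractant chemerin, had 28.3, 35.5, 37.6 and 23.6 RPM in Kupffer cells against 1051, 1780 and 1558 RPM (−6.17 ± 0.21; adjusted p = 4.8e-09, limma). Cxcl2, which attracts neutrophils, had 26.5, 36.4, 16.3 and 14.7 RPM against 484, 711 and 1038 RPM (−5.62 ± 0.32), Ccl9 87.9, 51.7, 67.5 and 104 RPM against 1870, 1929 and 1880 RPM (−5.32 ± 0.22), and Ccl3 125, 90.8, 204 and 136 RPM against 2388, 2932 and 2107 RPM (−4.87 ± 0.24). Cxcl13, which attracts B cells, was the opposite case with 125, 159, 97.1 and 135 RPM against 0, 0.584 and 0.895 RPM (6.06 ± 0.3). Cxcl14, represented by 3 reads in all in Ly6C high macrophages (ratio 48.7, counting interval 16.5 to 237), was also higher.

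Genes of adhesion were called in both directions, while those of the cytoskeleton and of its calcium-binding partners were mostly lower. Of 22 adhesion genes, 6 were higher, 11 lower and 5 not called, against 29.5% higher and 25.1% lower of all tested genes. These counts were 8 and 8 on RPM as deposited, and the median turned from −0.53 to 0.15. Cd81, a tetraspanin, had 822, 698, 508 and 733 RPM in Kupffer cells against 11.7, 11.6 and 10.3 RPM (5.15 ± 0.19; adjusted p = 5.4e-09, limma), and Itga9, an integrin chain, 170, 235, 139 and 191 RPM against 3.01, 3.5 and 1.97 RPM (5 ± 0.23). Vcam1 had 205, 214, 79.8 and 182 RPM against 11.3, 16.5 and 10.8 RPM (2.9 ± 0.32). Itga4, a chain of the receptor that binds the Vcam1 protein, was lower with 235 to 291 RPM against 696 to 790 RPM (−2.22 ± 0.16), and Itgb7 with 25.5 to 49 RPM against 112 to 132 RPM (−2.29 ± 0.21). Of 16 S100, annexin, galectin and cytoskeletal genes, 15 were lower, none higher and 1 not called, with a median of −2.06. Anxa1, an annexin that dampens inflammation, had 51.4, 51.2, 108 and 59.3 RPM against 878, 625 and 713 RPM (−4.17 ± 0.25), and Ahnak, a large scaffold protein, 157, 136, 319 and 184 RPM against 1504, 1316 and 1674 RPM (−3.66 ± 0.26). Anxa5 was the gene not called (0.07 ± 0.14).

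Components of the signals that neighbouring cells send to Kupffer cells, Notch, BMP and TGF-beta, showed both directions. So did all tested genes, at 29.5% higher and 25.1% lower. Of the 24 tested components, 9 were higher, 9 lower and 6 not called. Without scaling, 11 were higher and 5 lower, and the median turned from −0.12 to 0.55. Eng, a co-receptor for BMP that endothelial cells carry at high levels, had 782, 1089, 1987 and 754 RPM in Kupffer cells against 40.6, 43.3 and 51.6 RPM (3.86 ± 0.29; adjusted p = 6.5e-07, limma), and Notch4, an endothelial Notch receptor, 26.3, 23.9, 83.1 and 31.5 RPM against 0.54, 0.167 and 0.895 RPM (4.19 ± 0.41). Both peaked in Kupffer replicate 3, as did 51.3% of all genes called higher and the endothelial markers, whose part was not tested. Hey1, a Notch target, did not, with 21.4, 21, 7.68 and 25.1 RPM against 2.39, 1.33 and 3.22 RPM (1.95 ± 0.4), and Smad6, a BMP target and inhibitor, was even at 22.6, 23.4, 25.3 and 21 RPM against 2.62, 1.42 and 3.04 RPM (2.31 ± 0.27). Notch2 was lower with 225, 183, 172 and 205 RPM against 460, 438 and 492 RPM (−1.93 ± 0.16), as was Hes1 (−1.44 ± 0.22). Csf1r, the receptor for the growth factor of macrophages, was not called (0.17 ± 0.33), with 2104, 1967, 795 and 2178 RPM against 1028, 807 and 884 RPM.

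Interferon-stimulated genes were mostly not called, with 2 higher, 8 lower and 14 not called of 24, and on RPM as deposited 7 were higher and 4 lower and the median turned from −0.31 to 0.37. Zbp1, a sensor of Z-form nucleic acid, had 86.6, 86.9, 74.2 and 94.9 RPM in Kupffer cells against 180, 235 and 228 RPM (−1.99 ± 0.17; adjusted p = 1.6e-06, limma). Ifi44 was higher with 62.7, 50, 80.7 and 62.1 RPM against 16.7, 12.6 and 8.5 RPM (1.63 ± 0.24). Irf7, the factor that amplifies the interferon response, was not called (0.16 ± 0.19), with 582 to 861 RPM against 390 to 434 RPM.

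Immediate early and dissociation response genes, which cells switch on within minutes of a stimulus and also while tissue is being digested, formed the list with the largest share of lower genes beside classical monocyte genes. Of 38 tested, 36 were lower, 1 was higher and 1 not called, with a median of −3.62, and the same counts held on RPM as deposited. Their levels summed to 5094, 4231, 5653 and 4671 RPM in Kupffer cells and to 43116, 49625 and 47546 RPM in Ly6C high macrophages. Atf3, a stress-induced transcription factor whose promoter is shown above, had 98.7, 102, 106 and 74.9 RPM against 3372, 3867 and 4020 RPM (−5.97 ± 0.17; adjusted p = 1.6e-09, limma). Nr4a1, the nuclear receptor NUR77 that Ly6C low monocytes need, had 126, 148, 144 and 112 RPM against 5078, 4717 and 5277 RPM (−5.93 ± 0.16; adjusted p = 1.6e-09, limma). Fos, a subunit of AP-1, had 298, 164, 419 and 350 RPM against 7592, 5993 and 6954 RPM (−5.23 ± 0.29). None of these 3 genes overlapped between the groups, which for Atf3 and Nr4a1 was a condition for standing among the 12 largest differences. Tnfaip3, which encodes the NF-kappaB inhibitor A20, had 25.6, 28, 35.2 and 20 RPM against 365, 555 and 561 RPM (−4.81 ± 0.21). Myc was the exception, higher with 55.5, 47.8, 40.7 and 62.3 RPM against 3.4, 15.3 and 6.26 RPM (2.06 ± 0.37), and Egr3 was not called (−0.71 ± 0.36). Both populations were sorted from minced and digested liver, and the part of this handling in the result was not tested.

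Genes of S phase and mitosis were higher for 21 of 30 tested and lower for none, with 9 not called and a median of 1.19, and 18 were higher without Kupffer replicates 1 and 4. Tk1, thymidine kinase, had 71, 105, 48 and 57.4 RPM in Kupffer cells against 1.54, 5.51 and 3.58 RPM (3.43 ± 0.35; adjusted p = 7e-06, limma). Cdk1, the kinase that drives entry into mitosis, had 29.2, 44.6, 31.8 and 35.8 RPM against 0.849, 6.51 and 3.85 RPM (2.57 ± 0.42, or 1.95 without Ly6C high replicate 1), and Mcm2, a subunit of the replication helicase, 74.1, 81.3, 73.5 and 102 RPM against 6.41, 11.2 and 9.93 RPM (2.41 ± 0.22). Mki67, the usual proliferation marker, differed less, with 25.1, 49.2, 27 and 29.9 RPM against 6.02, 11.3 and 16.2 RPM (0.87 ± 0.33; adjusted p = 0.04, limma), and overlapped between the groups after scaling. Mki67 was not called without Kupffer replicate 2 (0.67) or 4 (0.89), without Ly6C high replicate 1 (0.49) or 2 (0.87), or without Kupffer replicates 1 and 4 (1.07). Markers of lymphocytes and endothelial cells were higher in the same libraries, and their part in this result was not tested.

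**Figure D5:**
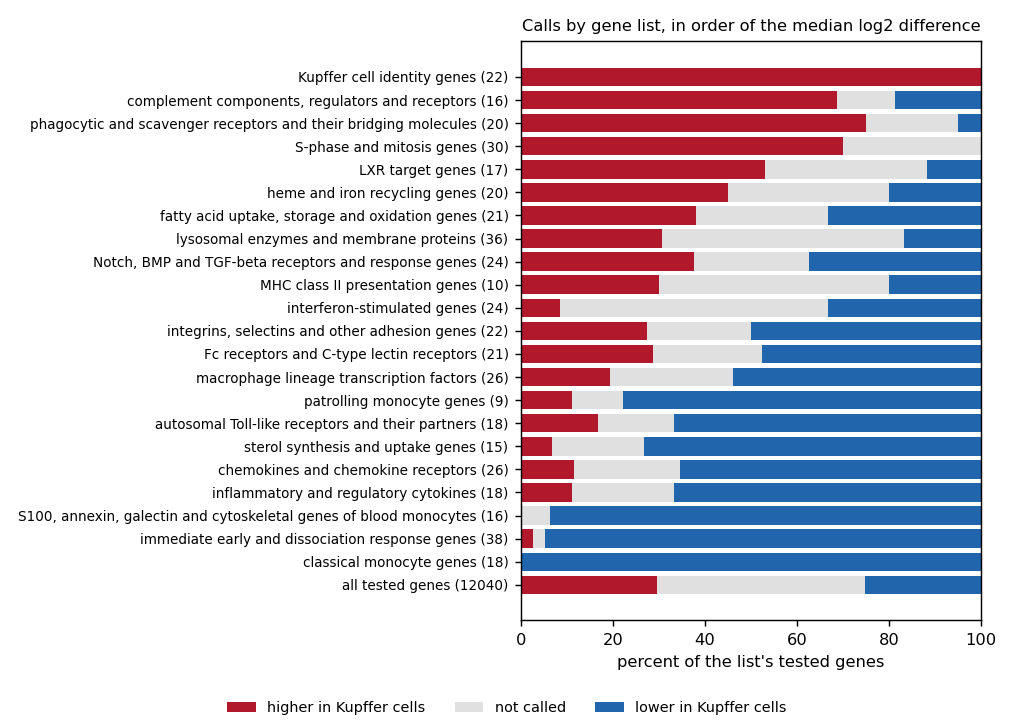
Percent of the tested genes of each list that were higher (red), not called (grey) or lower (blue) in Kupffer cells, with the number tested in brackets and lists in order of their median log2 difference. Kupffer identity genes are all red and classical monocyte genes all blue, and the bottom bar shows all 12040 tested genes, at 29.5% higher and 25.1% lower.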

How the data were processed

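Macrophages were sorted by FACS from wild-type livers, total RNA was extracted, and libraries were made from 1 ng of RNA as a targeted amplicon panel (Ion AmpliSeq, mouse transcriptome). The authors deposited 1 table of RPM, reads of each gene per 1000000 assigned reads, produced with the AmpliSeqRNA plug-in; the submitters' processing notes name mm10. Whole reads were recovered from the RPM to within 0.1 reads for 100% of values, which gave 11179177 to 12956956 reads a library, and 3 reads corresponded to 0.232 to 0.268 RPM. Genes were placed on chromosomes with GENCODE vM21 and RefSeq symbols (GRCm38).

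Each library was scaled by its relative log expression factor, 1 RPM was added, and log2 values were fitted with limma 3.58.1 (trend, R 4.3.3), two-sided, with Benjamini-Hochberg adjustment over 12040 genes. A gene was called at over 1.5-fold with adjusted p below 0.05. In simulated data, 71 of 100 genes changed 2-fold, 100 of 100 changed 4-fold and 11 of 11835 unchanged genes were called. The simulation gave all genes the same dispersion and changed few genes, in equal numbers up and down. It held no outlying library, so these rates need not hold for the real libraries. Alternatives were a pseudocount of 0.1, no filter, RPM as deposited, TMM factors, all 29 libraries, a replicate block, DESeq2 1.42.0 and edgeR 4.0.16 on recovered reads, over 2-fold, all chromosomes, and leaving out each library.

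The genes named were the 12 largest differences in each direction among called genes with a mean of at least 10 RPM in the higher group and no overlap between libraries, members of gene lists by role, those with the largest differences first, and the genes of the sorting proteins. Members and lists were chosen with earlier results of these data known, so no list was tested as a set. The 24 pancreatic genes, and the fit without Kupffer replicates 1 and 4, were added after seeing the data. Some genes, among them those of the Ly6C protein, are not reported here.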

Additional observations from a re-analysis of the deposited data

Results flagged for a closer look

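Each of the 161 genes named and the 35 list sums was examined in the 4 Kupffer libraries for a library far from the others, by the gap to its nearest neighbour divided by the range (Dixon's test at the 95% level). About 1 in 20 such groups is picked out by chance. Of the 29 results found, 26 concerned Kupffer replicate 3.

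Replicate 3 was picked out as the lowest Kupffer library for the identity gene sum (8083 RPM) and for the identity genes Cd5l (2098 RPM), Timd4 (166 RPM), Clec1b (297 RPM) and Il18bp (185 RPM). The same held for the sums of LXR targets (6973 RPM), lineage transcription factors (5703 RPM), scavenger and phagocytic receptors (5712 RPM), lysosomal genes (14202 RPM), chemokines and their receptors (3368 RPM) and fatty acid genes (2113 RPM). The gap is relative to the range and can be small in size, as for the chemokine sum, which was 3585 to 3629 RPM in the other Kupffer libraries, and the transcription factor sum, which was 6503 to 6565 RPM. Single genes of these and other groups were Abca1 (179 RPM), Lpl (329 RPM), Cd68 (588 RPM), Csf1r (795 RPM), Slc48a1 (134 RPM) and Cd209f (26.3 RPM).

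The same library was picked out as the highest for the sums of hepatocyte markers (6052 RPM) and T cell markers (363 RPM). Among single genes this held for Alb (3408 RPM) and Ahsg (884 RPM), both secreted by hepatocytes, for Notch4 (83.1 RPM), an endothelial Notch receptor, and for Cd55 (503 RPM), Scd1 (417 RPM), Anxa1 (108 RPM) and Anxa5 (489 RPM).

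Kupffer replicate 2 was picked out for Cd177 (0 RPM) and Itgax (88 RPM), which were lowest there, and for Mrc1 (1600 RPM), which was highest.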

How the results depend on the processing

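On RPM as deposited, 5972 genes were higher and 1275 lower in Kupffer cells, and at over 2-fold 1920 were lower. Also on RPM as deposited, H2-Aa turned to 0.09, H2-Eb1 to 0.67 (called there), C5ar1 to 0.5, H2-Ab1 to 0.45, Irf8 to 0.3, Nr1h2 to 0.26, Id3 to 0.25 and Cd74 to 0.06. Without Kupffer replicates 1 and 4, an alternative chosen after seeing the data, Siglecf turned to −1.11, Hmox1 to −0.4, Csf1r to −0.21, Ly96 to −0.06 and Abcg1 to −0.02. H2-Eb1 turned to 0.11 in the fit of all 29 libraries. With 1 library left out, Hmox1 ranged from −0.19 to 0.42, Siglecf from −0.38 to 0.77, Ly96 from −0.08 to 0.17, H2-Eb1 from −0.15 to 0.09 and Irf8 from −0.65 to 0.03. Of these genes only H2-Aa was called after scaling. Other alternatives moved neither count of calls by more than 1.5 times. Leaving out 1 library gave 3076 to 3468 genes higher and 2622 to 2933 lower. With a replicate block, 3484 genes were higher and 3013 lower. Same-numbered libraries deviated together by correlations of 0.043, 0.088 and 0.179, so the numbers were not taken as pairs. Kupffer replicates 2 and 3 correlated best with the Ly6C high library of their own number, and replicate 1 with Ly6C high replicate 2. Under the block 158 of 161 named genes kept direction and side, Egr3 was called at −0.9, and Hmox1 and Siglecf, not called, turned to −0.19 and −0.39. Over all alternatives, 2808 of 2895 values of named genes kept direction and side, 40 lost a call, 16 gained one in the same direction and 31 changed sign. Without a filter 18402 genes were tested, 3380 higher and 3669 lower. The cause of these changes was not tested. Below 3 reads, which is 0.232 to 0.268 RPM in these libraries, a gene was not told from 0.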
